A study of Mus musculus with 2 samples.

Results

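The Schlafen family was followed on 2 NimbleGen expression arrays of long-term haematopoietic stem cells (LT-HSCs), from which all blood lineages can be renewed. The 7 members were Slfn1, Slfn2, Slfn3, Slfn4, Slfn5, Slfn8 and Slfn9, and they were chosen by gene name among the 24203 genes named on the array. Of these, 5 had at least 1 row of their own, 8 rows in all of 44170, each summarising 3 probes. Slfn2 and Slfn8 had no row under their names and were not analysed here. One array held cells of wild-type mice and the other cells of mice lacking cia-cGAS, a circular RNA. Both groups were C57BL/6 mice of 8 weeks, kept free of specific pathogens, and cells were sorted from flushed bone marrow. The sources used here do not say which sort markers or how many cells were used, whether animals were pooled or how the cia-cGAS allele was made. With 1 array a group there is no replicate, so the differences describe these 2 samples and carry no test.

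Schlafen genes encode proteins with a shared core domain, found in mammals and strongly expressed in blood cells, and several of them are induced by type I interferon. They are commonly sorted by length. Slfn1 and Slfn2 are the short forms, Slfn3 and Slfn4 the intermediate forms, and Slfn5, Slfn8 and Slfn9 the long forms, which add a helicase-like domain. The core domain of several members can bind or cleave transfer RNA, and Slfn2 is known for keeping T cells and monocytes quiescent. Type I interferon acts through the receptor chains Ifnar1 and Ifnar2 and the kinases Jak1 and Tyk2 on a complex that includes Stat2 and Irf9 and binds an element called the ISRE in front of its target genes.

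Promoter sequences are shown first, with the family parted into 2 sets by exact matches to the letters described below. The windows run from 250 bases before to 50 bases after each annotated start, in RefSeq on GRCm38.p6, and all 7 members had at least 1. Capitals mark the ISRE core, which is GAAA, any 2 bases and GAAA again, read on either strand, or the run ACTTCCTGG, which was chosen after the sequences had been read. The windows of Slfn5 (chr11:82951852-82952151, plus strand), Slfn9 (chr11:82991781-82992080, minus strand), Slfn1 (chr11:83116570-83116869, plus strand) and Slfn4 (chr11:83174936-83175235, plus strand) are given whole, as those of the members with the largest and smallest differences of each set.
Slfn5: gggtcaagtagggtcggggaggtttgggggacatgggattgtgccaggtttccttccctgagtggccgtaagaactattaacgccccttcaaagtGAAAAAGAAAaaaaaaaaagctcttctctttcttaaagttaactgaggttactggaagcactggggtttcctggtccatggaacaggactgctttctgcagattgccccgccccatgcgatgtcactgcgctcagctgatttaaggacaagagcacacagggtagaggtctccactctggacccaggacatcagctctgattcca
Slfn9: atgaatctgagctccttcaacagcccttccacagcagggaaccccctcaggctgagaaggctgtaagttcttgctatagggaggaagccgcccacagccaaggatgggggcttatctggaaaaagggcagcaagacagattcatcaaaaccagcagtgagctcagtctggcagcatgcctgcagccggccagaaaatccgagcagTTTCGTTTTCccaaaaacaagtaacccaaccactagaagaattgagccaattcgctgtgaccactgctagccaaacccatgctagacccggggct
Slfn1: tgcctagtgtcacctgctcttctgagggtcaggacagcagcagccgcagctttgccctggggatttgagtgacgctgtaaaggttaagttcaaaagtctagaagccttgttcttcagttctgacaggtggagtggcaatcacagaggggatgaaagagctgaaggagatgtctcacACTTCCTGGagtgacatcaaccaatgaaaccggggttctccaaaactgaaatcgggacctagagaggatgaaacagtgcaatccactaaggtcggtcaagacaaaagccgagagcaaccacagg
Slfn4: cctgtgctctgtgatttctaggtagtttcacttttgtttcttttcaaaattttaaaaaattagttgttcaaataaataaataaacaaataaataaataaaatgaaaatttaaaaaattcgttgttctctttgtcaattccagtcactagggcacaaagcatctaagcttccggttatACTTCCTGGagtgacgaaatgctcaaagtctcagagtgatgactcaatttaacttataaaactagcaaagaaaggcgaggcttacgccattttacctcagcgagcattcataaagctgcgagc
For the other members, the bases around the capitals are given, from chr11:83020761-83021060 (Slfn8, minus strand, the first of 2 starts in the direction of transcription), chr11:83064862-83065161 (Slfn2, plus strand) and chr11:83191080-83191379 (Slfn3, plus strand).
Slfn8: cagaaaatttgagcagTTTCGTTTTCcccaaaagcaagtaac
Slfn2: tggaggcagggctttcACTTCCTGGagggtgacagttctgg
Slfn3: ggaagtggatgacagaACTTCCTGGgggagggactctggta

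The ISRE core was found in front of the long forms Slfn5, Slfn8 and Slfn9, and the run ACTTCCTGG in front of the short and intermediate forms Slfn1, Slfn2, Slfn3 and Slfn4. In no window of the 7 genes were both found. The ISRE core began 155 bases before the start of Slfn5, where it lay in a stretch rich in A. It covered the bases from 45 to 36 before the start of Slfn9 and from 48 to 39 before that of Slfn8, on the minus strand of the gene in both. The windows of Slfn8 and Slfn9 resembled each other over their length, with 248 of 292 aligned bases identical (84.9%). ACTTCCTGG began 74 bases before the start of Slfn1, 73 before that of Slfn4, 55 before that of Slfn2 and 42 before that of Slfn3. In Slfn1 and Slfn4 the shared run was longer, 15 bases. Of all 32851 promoter windows, 3.44% held the ISRE core and 0.843% held ACTTCCTGG. The letters TTCNNNGAA, the core of the GAS element of interferon gamma targets, were in 0 of the 8 windows of the members, against 8.30% of all windows. For comparison, 6 of 9 windows of Ifit genes and 5 of 6 windows of Gbp genes held the ISRE core, and 0 of either held ACTTCCTGG. These matches describe letters in a window and are not measured binding sites. Only exact matches were counted, and near matches were not searched for in any window. The Slfn4 window, for example, holds TTTCACTTTT, which departs from the ISRE core in its last base alone.

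All 5 measured Schlafen genes, and all 8 of their rows, were higher in the knockout by 2-fold or more, against 6.14% of the 17031 rows detected on either array. Intensities are the deposited linear values, differences are knockout minus wild type on the log2 scale, and a row counts as detected on an array when it lies above a floor, which is 9.11 on the log2 scale (an intensity of 551) on the wild-type array and 8.97 on the knockout array. These floors are the 95th percentile of receptor genes of smell, pheromone sensing and taste. For a gene with several rows, the row with the highest mean over both arrays stands for it, and so chosen all 5 genes were detected on both arrays. Their differences ran from 1.85 to 5.66 with a median of 3.26, a 9.57-fold higher level, while the median of all 9242 genes detected on both arrays was -0.04. All 5 were at least 2-fold higher and 0 lower, against a background of 5.38% of those genes at least 2-fold higher and 4.19% lower. At least 4-fold higher were 4 of the 5, against 1.49% of all genes. At least 8-fold higher were 3, against 0.509%. The central 95% of all gene differences ran from -1.18 to 1.56, and each of the 5 lay above it.

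**Figure D1:**
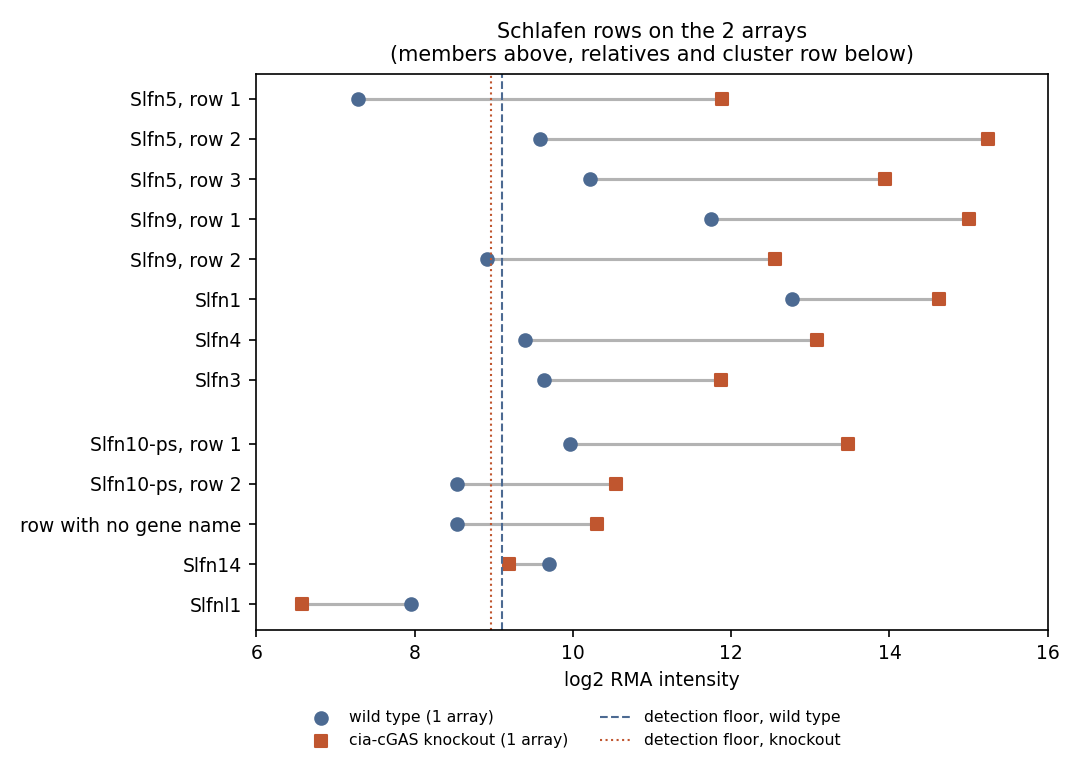
Log2 RMA intensity of each Schlafen row on the wild-type array (circles) and the knockout array (squares), with the detection floor of each array as a vertical line and rows of a gene numbered by position. The 8 rows of the 5 members lie above the 5 other rows, which belong to relatives of the family or carry no gene name, and every member row is higher in the knockout, by 1.85 to 5.66.

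The long form Slfn5, which in human cells is known as an interferon-induced nuclear protein, had the largest difference of the family. Its 3 rows lie on chromosome 11 of the MM9 build, from 82765603 to 82772304 (row 1), from 82768162 to 82776443 (row 2) and from 82768244 to 82775882 (row 3). Row 2, which stands for the gene, had an intensity of 767 on the wild-type array and 38700 on the knockout array, a 50.5-fold difference. Row 3 had 1193 and 15836 on the same arrays, which is 13.3-fold. Row 1 had 156 and 3776, and because its wild-type value lay below the floor its difference is a bound of at least 6.85-fold. All 3 rows thus placed Slfn5 more than 4-fold higher in the knockout, but they disagreed on the size. The measured differences of rows 2 and 3 were 5.66 and 3.73, whereas rows of the same gene, over the 2895 genes with at least 2 detected rows, differed with a pooled SD of 0.37. Rows of a gene are repeat readings of the same RNA and not replicates. When its rows were averaged, the wild-type level of Slfn5 fell below the floor, and its difference became a bound of at least 4.58. The knockout value of row 2, 15.24 on the log2 scale, lay near the highest of that array, 15.84, where differences can be compressed.

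The long form Slfn9 is encoded on the opposite strand from Slfn5, beside it in the cluster. Its brighter row, from 82794681 to 82801804 on chromosome 11, had 3450 on the wild-type array and 33028 on the knockout array, a 9.57-fold difference. Its other row, from 82795655 to 82804639, had 486 and 6033 and was at least 10.9-fold higher, with the wild-type value below the floor. Both rows were higher on the knockout array, the brighter one from a wild-type value already well above the floor. On the log2 scale the brighter row differed by 3.26, and the other had a bound of at least 3.45. Slfn8, the neighbouring long form with a like promoter, had no row, and near-identical members of the family can share hybridisation. How much of the Slfn9 signal came from Slfn8 RNA was not tested.

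The intermediate forms Slfn4 and Slfn3 lie next to each other at the end of the cluster and had 1 row each. Slfn4, known from macrophages and myeloid suppressor cells, had an intensity of 677 on the wild-type array and 8694 on the knockout array, a 12.8-fold difference (chromosome 11 from 82988687 to 83003718). Slfn3 had 795 on the former and 3735 on the latter, a 4.70-fold difference (from 83004893 to 83028642). Both wild-type values were close to the floor, and both knockout values were far from it. With the floor set at the 99th percentile of the receptor rows, the wild-type values of Slfn3 and Slfn4 fell below it and their differences became bounds, of at least 1.68 and 2.90 on the log2 scale.

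The short form Slfn1, first described in developing thymocytes, had the smallest difference of the 5. Its single row had an intensity of 6965 on the wild-type array and 25160 on the knockout array, a 3.61-fold difference (chromosome 11 from 82930351 to 82936172). Slfn1 was clearly detected on the wild-type array as well, 12.77 against a floor of 9.11 on the log2 scale. The long forms, at 5.66 and 3.26, did not stand apart from the intermediate forms, since Slfn4 at 3.68 lay between them.

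Among the 9242 genes detected on both arrays and ordered from the highest difference down, Slfn5 ranked 2, Slfn4 ranked 18, Slfn9 ranked 32, Slfn3 ranked 112 and Slfn1 ranked 163. The 5 genes were thus spread over the upper part of the 497 genes that passed 2-fold upwards. Genes with the most similar array values were looked up for each member, as the 2 with the least distance from it in log2 intensity over the 2 arrays. For Slfn5 they were the chemokine gene Cxcl10 (distance 0.33) and the antiviral gene Ifit2 (0.39). Slfn9 lay closest to Gm4070 (0.14) and Samd9l (0.19), an antiviral gene. Closest to Slfn4 were Phf11b (0.20) and AW112010 (0.21). Slfn3 had Bcl2a1b (0.04), a relative of the survival gene Bcl2, and Iigp1 (0.06), an immunity-related GTPase gene, as its nearest genes. For Slfn1 the nearest were Ifi209 (0.14), a gene of the p200 family, and Gm8995 (0.28). Such closeness is one of array intensities, which depend on the probes, and does not compare RNA levels between genes.

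**Figure D2:**
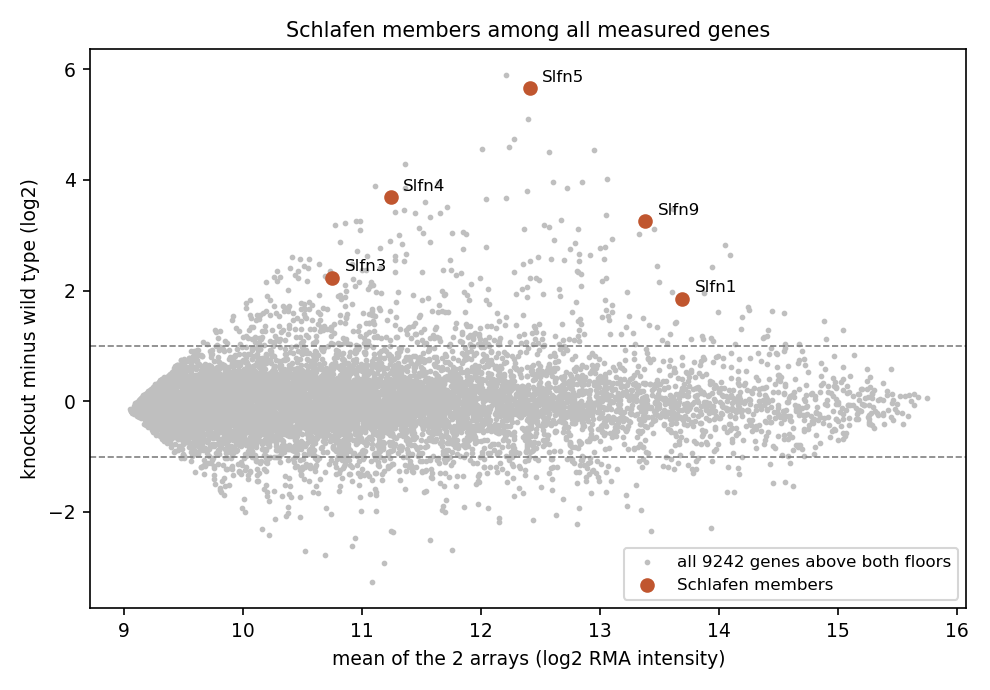
Difference between knockout and wild type (log2) against the mean of both arrays (log2 RMA intensity) for the 9242 genes detected on both arrays, with the 5 measured Schlafen genes in colour and dashed lines at 2-fold. The 5 genes sit above the upper line at different mean levels, Slfn5 near the top of the plot and Slfn1 closest to the line.

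The other rows of Schlafen relatives did not all share this direction. Slfn10-ps, listed on the array as Slfn10 and named as a pseudogene of the cluster, had an intensity of 999 on the wild-type array and 11381 on the knockout array by its brighter row, an 11.4-fold difference. Its other row had 372 and 1502 and was at least 2.72-fold higher. Slfn14, a long form known from platelets and red cell precursors, had 830 in the wild type against 584 in the knockout, a difference of -0.51. Markers of those lineages were lower on the same array, and their counts stand against 4.06% of the 10859 genes detected on either array. Of the megakaryocyte markers, 2 of the 3 detected (Ppbp and Itga2b) were at least 2-fold lower, and Gp9 was below both floors. The summed intensity of that list was 11863 in the wild type against 3078. Of the erythroid markers, 2 of the 7 detected (Ank1 and Sptb) were at least 2-fold lower, with sums of 101125 and 82890. Klf1 and Epor were below both floors. Their part in the Slfn14 value was not tested. Slfnl1, a distant relative on chromosome 4, had 250 and 95.8, below the floor of both arrays. A transcript row without a gene name, from 82879253 to 82884748 on chromosome 11, had 373 in the wild type against 1273 in the knockout and was at least 2.31-fold higher. It lies between Slfn10-ps and Slfn1, where the RefSeq gene order has Slfn2 and the non-coding genes Gm20234 and Gm51911, and it was matched to none of them. Between MM9 and GRCm38.p6, the starts of Slfn5, Slfn1, Slfn4 and Slfn3 are shifted by nearly the same distance. By that shift the annotated start of Slfn2 falls shortly before this row. Whether the row reads Slfn2 RNA was not tested.

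Most genes around the cluster did not share the differences of its Schlafen genes. The 8 member rows span 263 kb of chromosome 11, and from 500 kb before to 500 kb after them the array names 30 other genes, of which 17 were above the floor of at least 1 array. In front of the cluster, 0 of the 4 such genes reached 2-fold in either direction: Zfp830 differed by -0.53 and Rad51d, a DNA repair gene, by -0.14, Lig3, a DNA ligase gene, passed the knockout floor with a bound of 0.17 by its brightest row and the wild-type floor with a bound of -0.66 by another, and Unc45b passed it without reaching the wild-type floor. Between the members lay Gm11425, a pseudogene in RefSeq, which differed by -0.63, beside Slfn10-ps. Behind the cluster, AI662270 differed by 0.32, Ap2b1, a clathrin adaptor gene, by -0.11 and Taf15 by -0.58, although the other row of Taf15 differed by 0.98. Further along is a group of chemokine genes, in which Ccl3 was 8.13-fold, Ccl5 6.71-fold and Ccl9 2.54-fold higher. Ccl4 was at least 1.29-fold higher, Ccl6 differed by 0.39 and E230016K23Rik by -0.73. In all, 4 of the 17 genes were higher by 2-fold or more and 0 were lower, against 5.53% and 4.06% of the 10859 genes detected on either array. These were Slfn10-ps and the chemokine genes Ccl3, Ccl5 and Ccl9.

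**Figure D3:**
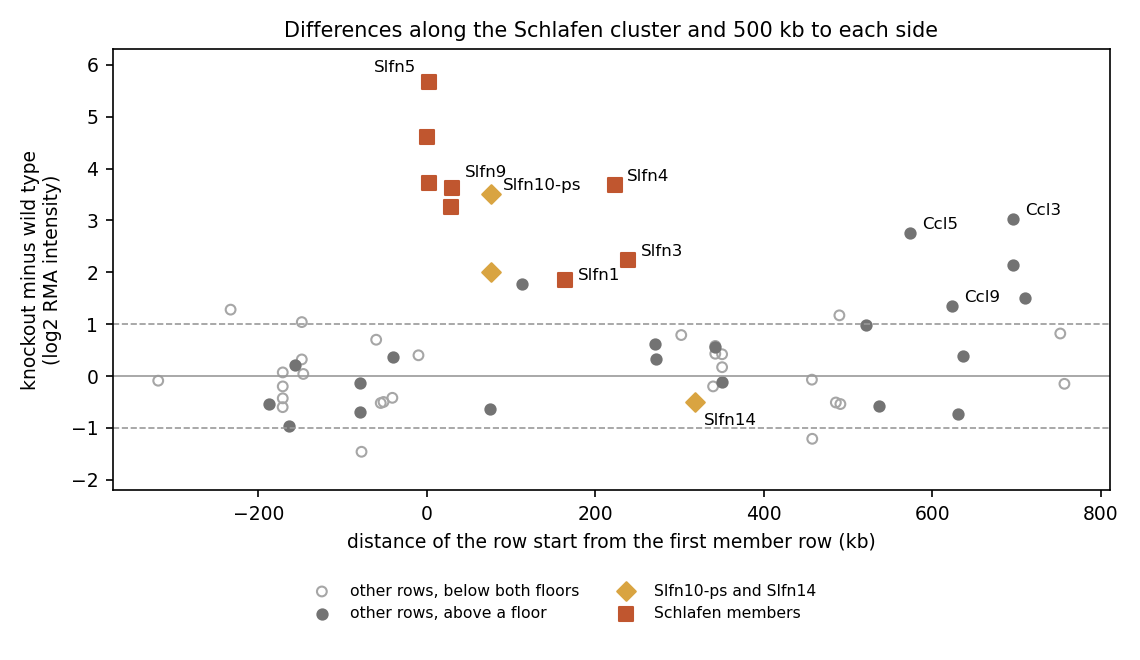
Difference between knockout and wild type (log2) of every row from 500 kb before to 500 kb after the Schlafen members, by distance of the row start from the first member row (kb), with dashed lines at 2-fold and open circles for rows below both floors, whose differences are not measurable folds. The member rows lie between 1.85 and 5.66, most rows in front of the cluster and just behind it lie between the dashed lines, and Ccl5 and Ccl3 stand apart further along.

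Ifit and Gbp genes, which are families of interferon-induced genes with related members side by side in clusters, gave values in the same range. All 5 Ifit genes passed 2-fold upwards, against 5.53% of the 10859 genes detected on either array. The 4 Ifit genes detected on both arrays had differences from 3.48 (Ifit3b) to 5.10 (Ifit2). Ifit1bl1 was at least 49.8-fold higher, and the lowest measured Ifit difference lay above those of Slfn9, Slfn3 and Slfn1. Of 12 Gbp genes, 9 were detected on at least 1 array and all 9 were at least 2-fold higher, against the same 5.53%, the 7 measured on both ranging from 1.39 (Gbp4) to 3.84 (Gbp2). The medians over members detected on both arrays were 4.64 for Ifit, 3.26 for Schlafen and 2.79 for Gbp genes. With 1 array a group, the difference between families was not tested.

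**Figure D4:**
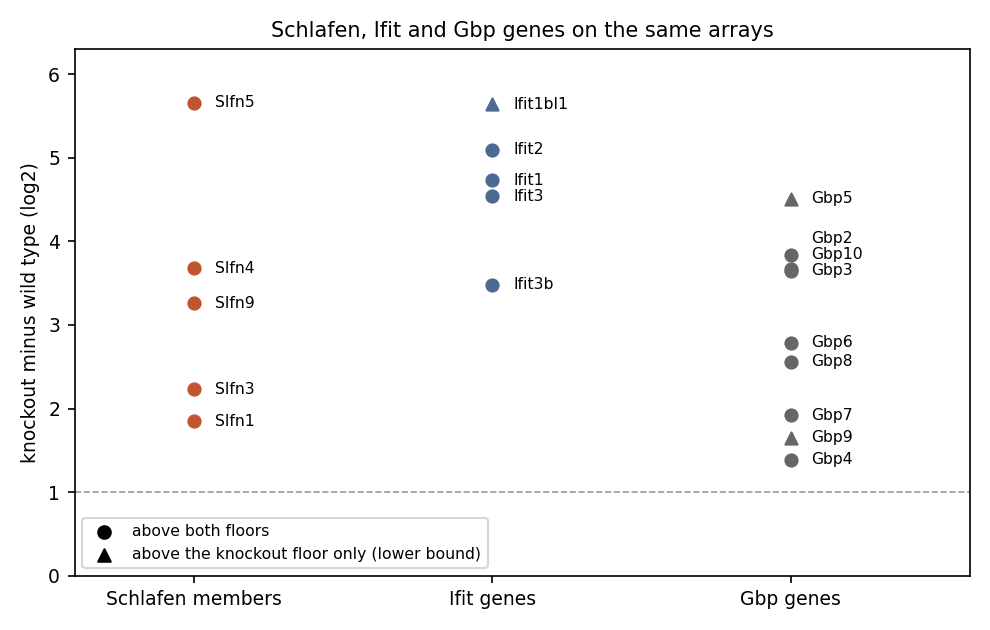
Difference between knockout and wild type (log2) of each Schlafen, Ifit and Gbp gene above the floor of at least 1 array, with circles for genes detected on both arrays, triangles for lower bounds of genes detected in the knockout alone and a dashed line at 2-fold. All points lie above the line, and the Schlafen genes, from 1.85 to 5.66, overlap both other families.

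The genes through which interferon acts on its targets were not all higher. In a list of 14 signalling genes, 13 had a row and 11 were detected on at least 1 array, 3 of them higher by 2-fold or more and 0 lower, against 5.53% and 4.06% of the 10859 genes detected on either array. The median over the 9 detected on both was 0.46. The receptor genes Ifnar1 and Ifnar2 differed by -0.10 and 0.10 and the kinase gene Jak1 by 0.28. Tyk2 passed the floor only in the knockout, with a value below the wild-type floor. Of the ISRE-binding complex, Stat2 had log2 levels of 11.66 and 14.44 in wild type and knockout and was 6.88-fold higher, while Irf9 differed by 0.46. Irf7, a factor that amplifies interferon output, was at least 7.63-fold higher. Irf1 differed by 0.72, and the feedback inhibitor gene Socs3 and the phosphatase gene Ptpn6 by 0.17 and 0.67.

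A list for tRNA cleavage, tRNA modification and the kinases that slow translation was described because Schlafen proteins act on tRNA. It held 13 names for 12 genes, since Dnmt2 is an older name of Trdmt1, which was below both floors. Of 9 genes detected on at least 1 array, 1 was higher by 2-fold or more and 0 were lower, which is near the 5.53% and 4.06% of all genes. The median over the 8 detected on both was 0.08. The exception was Eif2ak2, the kinase PKR that is itself induced by interferon, with log2 levels of 11.27 and 14.37 in wild type and knockout, an 8.62-fold difference. The tRNA-cutting ribonuclease gene Ang and its inhibitor gene Rnh1 differed by 0.14 and 0.12.

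Genes known for keeping blood cells at rest had a median difference near that of all genes. Of 18 genes listed, 17 had a row and 15 were detected on at least 1 array, with 0 higher by 2-fold or more and 1 lower, which is near the 5.53% and 4.06% of all genes. Their median was -0.05 over the 13 detected on both, beside -0.04 for all genes. That gene was Foxo3, a transcription factor of stem cell maintenance, whose brightest row was 2.02-fold lower and which fell short of 2-fold when its rows were averaged. Foxp1, Tsc1 and Rb1 differed by -0.98, -0.89 and -0.85, while 5 of the 13 had differences above 0. Foxo1 differed by -0.36 and Cdkn1a, a brake of the cell cycle, by 0.65. Cdkn1b, a related brake, was at least 1.60-fold lower and Cdkn1c at least 1.03-fold higher. Slfn2, the member tied to quiescence, had no row under its name to set beside them. The unnamed row near its place in the cluster was at least 2.31-fold higher, and whether it reads Slfn2 was not tested.

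Schlafen genes are expressed in many blood cells, so markers of other marrow cells on the same arrays are given beside them. Their counts stand against 5.53% of all genes detected on either array higher by 2-fold or more and 4.06% lower. Of 10 LT-HSC markers, 7 were detected on at least 1 array and 0 reached 2-fold. Kit and Ly6a were among the 7, whereas Procr and Slamf1 were among those below both floors. All 10 neutrophil markers were detected on both arrays, 1 of them (Itgam) higher by 2-fold or more and 0 lower. Their median was 0.35 and their intensities summed to 154165 (wild type) and 191034 (knockout). Of 10 monocyte and macrophage markers, all detected, 3 (Ctss, Fcgr1 and Ms4a6c) were higher by 2-fold or more and 0 were lower. Their median was 0.50 over those detected on both arrays, and their sums were 81064 and 109651. T and NK lineage markers had 0 of 8 detected past 2-fold, a median of -0.16 and summed intensities of 7678 and 7026, and Cd3d and Klrb1c were below both floors. Of 8 B lineage markers detected, 7 were lower by 2-fold or more and 0 were higher, the sums over the list were 19055 and 3629, and Cd79a and Igll1 were among those below both floors. The 5 Schlafen genes summed to 12654 and 109316 on the same arrays. The part of these cells in the Schlafen values was not tested, and in sorted bulk samples more cells of a type and more RNA per cell cannot be told apart.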

How the data were processed

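LT-HSC RNA of 1 wild-type and 1 cia-cGAS knockout sample was measured on single-colour NimbleGen arrays labelled with Cy3. The values the authors deposited are intensities on a linear scale, summarised per transcript row by RMA per the submitters' processing notes, with no version. RMA as generally defined makes the distributions of the arrays equal, so differences are relative to other genes. Whether RMA was run on these arrays alone is not stated in the sources used here. Double-stranded cDNA was labelled, so overlapping genes on opposite strands cannot be told apart. Coordinates are those of the MM9 annotation in the files, with the numbering of the first base not stated.

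Intensities were put on the log2 scale in Python 3.11.15 with pandas 2.3.3 and not normalized again. Gene names were updated by gene ID through RefSeq (39057 of 41886 named rows matched). Floors came from 1029 rows whose genes encode receptors for odours, pheromones or tastes. A gene above the floor on 1 array alone has a bound against the floor of the other, and no fold is given where that bound is below 1. Precision is limited by the number of arrays. The calling step was checked on a simulated table in which only genes far above the floor were changed. That check does not cover genes near the floor, such as Slfn3, Slfn4 and Slfn5 on the wild-type array. The members, lists and rules were chosen with earlier results of these data known. Named are all members and Schlafen relatives, neighbours above a floor, and the 2 nearest genes of each member. From the lists, genes differing by at least 1 or picked beforehand are named, and some others besides. Markers of other lineages are mostly given as counts. Some genes of the lists and neighbourhood are counted but not reported here by name. Alternatives were other floors, row choices, centrings, folds of 1.5 and 3, and the series-wide table, whose values differed by at most 1.3e-06 on the log2 scale.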

Additional observations from a re-analysis of the deposited data

How the results depend on the processing

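All 5 measured Schlafen genes stayed at least 2-fold higher under each of the 10 alternatives, also at a threshold of 3-fold, and none changed direction. The looser threshold, the lower floor, the absence of a floor and the series-wide table, which holds the same values, could not have lowered this count. The median difference of the 5 genes ran from 2.78 to 3.45. The value of 2.78 came from taking the row with the lowest mean for each gene, which turns Slfn5 into a bound of the same size. With the floor at the 99th percentile of receptor rows, Slfn5 became a bound of 5.05. No scaling or centring moved the median of all genes by more than 0.1 on the log2 scale.

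The lists rest on few genes, and single genes crossed the threshold, the alternatives for them being added after the data were seen. The 1 lower quiescence gene was lost (0) with rows averaged, with the lowest row, after loess centring, with arrays scaled to 1 median and at 3-fold, and the list had 5 lower and 1 higher at 1.5-fold and 1 higher with no floor. The tRNA list had 1 lower with rows averaged or with the lowest row, and 2 higher and 2 lower at 1.5-fold. The signalling list had 5 higher at 1.5-fold. Neighbours of the cluster had 1 lower with no floor and 2 at 1.5-fold. Over all genes, 497 higher and 387 lower became 291 and 241 with the stricter floor, 1411 and 1435 with none, 323 and 192 with the lowest row, 1057 and 1154 at 1.5-fold, 221 and 72 at 3-fold, and 199 lower with rows averaged. No paired analysis was possible because each group has 1 sample. Depth has no counterpart on these arrays. Values near the floor, such as the wild-type levels of Slfn3, Slfn4 and Slfn5, are the least certain.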

Other observations

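The predicted gene Gm11427, a pseudogene in RefSeq described on the array as similar to Slfn4, had an intensity of 141 and 244 in wild type and knockout, below both floors. The antisense transcript Slfn5os, which overlaps all 3 rows of Slfn5, had 45.1 and 59.6, also below both floors. Within the chemokine group behind the cluster, an unnamed row that overlaps Ccl3 differed by 2.14 with its wild-type value below the floor.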
